A study of Mus musculus with 6 samples.

Results

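The cytosolic ribosomal protein genes were taken by symbol, as those starting Rpl or Rps followed by a number together with Rplp0, Rplp1, Rplp2 and Rpsa, without Rps6k kinases and pseudogenes. The rule found 151 probes of 88 genes among the 22911 genes named on the array, and 84 of the 88 genes were bright enough to be tested. By role these were 31 of 31 proteins of the small (40S) subunit, 45 of 46 proteins of the large (60S) subunit, 6 of 9 paralogs and 2 genes that share the symbol but encode no ribosomal protein, Rps19bp1 and Rps23rg1. Rps27rt was not on the array. The study compared the livers of 3 male mice with a liver-specific knockout of Elovl6 (LKO) and 3 male control mice, titled Flox, which carry no knockout. Elovl6 encodes the enzyme that elongates palmitate into stearate. All 6 mice shared a high-sucrose diet for 14 days and a fast of 4 hours before the liver was taken, and each liver was read on its own one-colour Agilent array. The sources used here do not give the age or strain of the mice or the promoter that drives Cre. The comparison asks which liver transcripts differ when the liver lacks this elongase on a lipogenic diet, and here whether the mRNAs of the ribosome itself are among them.

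A cytosolic ribosome holds a single copy of most ribosomal proteins on a scaffold of ribosomal RNA, and the stalk proteins P1 and P2 are carried in pairs by P0. The proteins are made in matching amounts although their genes are scattered over the genome, and surplus subunits are degraded. Their mRNAs begin with a 5′ terminal oligopyrimidine tract (TOP), a C followed by an unbroken run of C and T, through which mTORC1 and the RNA-binding protein Larp1 set their translation according to nutrients, largely without a change in mRNA level. In liver they are among the most abundant mRNAs, and they are often used as stable references.

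The promoters were searched for short sequences that members may share beyond a symbol. RefSeq's promoter table (GRCm38.p6) held 80 promoters of 68 member genes, on 17 chromosomes with at most 11 genes on any of them. The windows below run 5′ to 3′ on the gene's own strand, with 30 bases before the annotated start and 20 from it on. Capitals mark CTTTC, part of a pyrimidine tract, on the gene's strand, and CCGGAAG, the core that ETS-family factors bind, on either strand. Rplp2, Rpl38, Rpl28 and Rps10 are shown because CTTTC lies at or just after the start, Rps27 with Rps27l and Rpl22 with Rpl22l1 because the results compare each gene with its paralog, and Rps15a and Rpl13 because they lie toward the 2 ends of the measured changes.
Rplp2, chr7:141447621-141447670, plus strand: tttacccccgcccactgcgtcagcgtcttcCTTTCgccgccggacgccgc
Rpl38, chr11:114668550-114668599, plus strand: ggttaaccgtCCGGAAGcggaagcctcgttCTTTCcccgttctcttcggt
Rpl28, chr7:4792935-4792984, plus strand: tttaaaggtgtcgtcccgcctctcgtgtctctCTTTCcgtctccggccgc
Rps10, chr17:27635225-27635274, minus strand: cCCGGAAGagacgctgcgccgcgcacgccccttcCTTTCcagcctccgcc
Rps27, chr3:90213629-90213678, minus strand: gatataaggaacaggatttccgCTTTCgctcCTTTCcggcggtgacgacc
Rps27l, chr9:66946056-66946105, plus strand: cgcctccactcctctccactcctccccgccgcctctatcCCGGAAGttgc
Rpl22, chr4:152325696-152325745, plus strand: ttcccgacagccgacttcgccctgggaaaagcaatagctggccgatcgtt
Rpl22l1, chr3:28805478-28805527, plus strand: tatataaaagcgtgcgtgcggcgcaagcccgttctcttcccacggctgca
Rps15a, chr7:118116128-118116177, minus strand: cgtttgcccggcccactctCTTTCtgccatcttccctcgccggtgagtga
Rpl13, chr8:123102320-123102369, plus strand: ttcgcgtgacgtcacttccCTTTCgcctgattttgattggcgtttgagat
In these windows Rplp2 and Rpl38 had CTTTC at the annotated start itself, and Rps27 had it 1 base later. Over the 50 bases from 20 before the start to 30 from it on, CTTTC stood on the gene's strand in 28.8% of member promoters against 6.57% of all 32851 promoters. On the opposite strand the shares were 8.75% and 6.30%. Within the whole 300 bases, CCGGAAG on either strand was in 33.8% of member promoters and in 8.86% of all. TATAA on either strand was in 23.8% and 24.9%. The longest run of C and T in the 50 bases had a median of 7 bases in members and 5 in all promoters. These matches describe letters in RefSeq windows and not measured sites, and promoters of 1 gene can overlap.

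Elovl6, the targeted gene, had processed signals of 6364, 12349 and 6624 in control mice and of 62.3, 88.5 and 99.6 in LKO mice. Each mouse thus matched its label (log2 change of -6.51 ± 0.30, SE, adjusted p = 0.00279 by limma). On each array 52.1% to 56.6% of spots stood well above background, none was saturated, and the number of arrays limits the precision. All 12 hepatocyte markers passed the brightness filter, with summed signals of 2040808 to 2161846 in controls and 2014080 to 2107277 in LKO. All sums given here are of unscaled signals, and the LKO arrays were dimmer, with 75th percentiles of 265 to 274 against 287 to 298 in controls. Relative to that percentile, 10 of the 12 hepatocyte markers were higher in LKO and 2 lower (median log2 change 0.10). The groups did not overlap for 5 of the 12 (41.7%, against 17.3% of all genes). After quantile normalization 8 were higher and 4 lower, and 1 was without overlap. The 12 Kupffer cell and macrophage markers summed to 28808 to 39284 in controls and 33386 to 40647 in LKO, and 6 of 11 neutrophil markers were tested (Ly6g, Mmp9, Mpo, Ngp and Cxcr2 were too dim), with sums of 20436 to 23086 and 19592 to 23653. Gene by gene, 12 of 12 Kupffer cell markers (median log2 change 0.22), 4 of 6 neutrophil markers (0.70) and 15 of 15 acute phase genes (0.77) were higher in LKO, and 0 of them passed an adjusted p of 0.05 by limma. At an unadjusted p under 0.05 they were 2, 3 and 15, where the share of all genes was 11.2%. The groups did not overlap for 2 of the 12 Kupffer cell markers (16.7%, against 17.3% of all genes). They also did not overlap for 3 of the 6 neutrophil markers (50%) and 14 of the 15 acute phase genes (93.3%). All 5 erythroid markers tested, of 8, were higher too (median 0.28), with 1 at an unadjusted p under 0.05 by limma. Whether these bear on the ribosomal protein genes was not tested. In bulk liver, fewer cells of a type and less RNA per cell cannot be told apart. All 6 arrays lay on 1 slide in 1 scan; the controls and LKO 1 were in 1 column of the slide, and LKO 2 and LKO 3 in the other.

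The ribosomal protein genes did not differ measurably between LKO and control livers, and the arrays bounded the size of any difference closely. Values are log2 processed signal relative to the 75th percentile of the array, and a change is LKO minus control. By limma, with p adjusted by Benjamini-Hochberg across the 14171 genes tested, 0 of 84 members passed an adjusted p of 0.05, against 2 genes of all tested (0.0141%), and the smallest adjusted p of a member was 0.49. At an unadjusted p under 0.05 there were also 0 of 84, against 11.2% of all genes tested. The groups of 3 mice did not overlap for 1 member, Rps19bp1, against 17.3% of all genes. It was lower in LKO, as were 9.21% of all genes, and 0 members were higher without overlap, against 8.11%. The count without overlap depended on the scaling, at 7 of 84 (8.33%) with median scaling and 19 of 84 (22.6%) after quantile normalization, where it was 17.5% and 17.9% of all genes.

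The median log2 change over the 84 genes was 0.02, with quartiles of -0.03 and 0.04, beside a median of 0.0031 over all genes. Members had a lower value in LKO in 31 cases and a higher one in 53, where 49.2% of all genes were lower. This split turned with the scaling, to 66 lower and 18 higher with each array scaled to its median and 48 lower and 36 higher after quantile normalization, and 72 were lower with the slide column in the fit. The median size of a change, whatever its sign, was 0.04 in members and 0.11 in all genes. Every one of the 84 had a 95% interval of its change within 1.5-fold in either direction, as did 74.3% of all genes. Over the alternatives 81 to 84 of the 84 stayed within 1.5-fold, and 82 of 88 with no filter on dim probes. For 70 of the 84 (83.3%) the interval lay within 1.25-fold, against 29.0% of all genes.

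**Figure D1:**
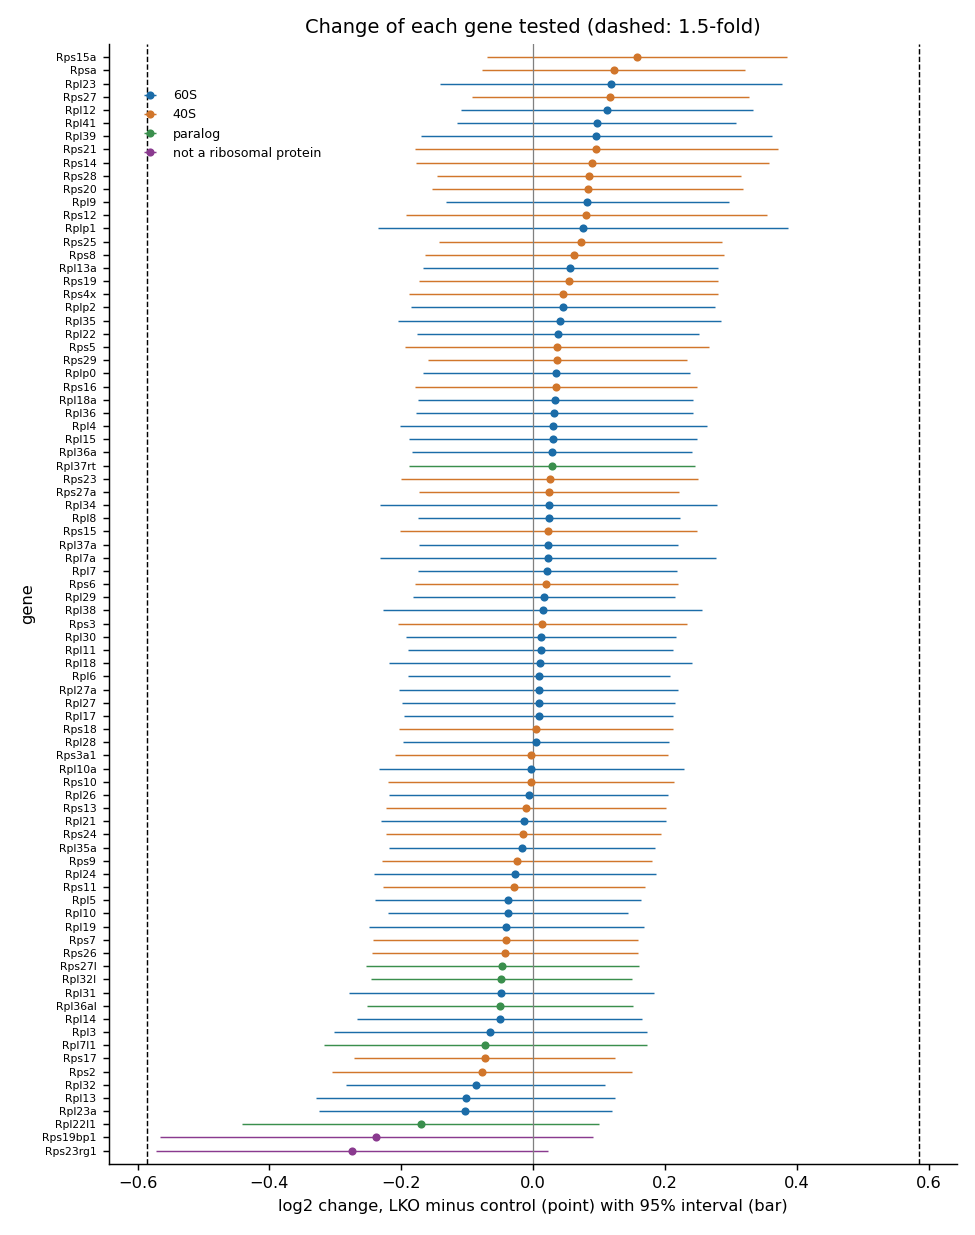
Log2 change, LKO minus control, of the 84 genes tested, sorted by value and coloured by subunit; points are limma estimates from 3 mice per group, bars their 95% intervals, and dashed lines mark 1.5-fold. All 84 bars cross 0 and stay between the dashed lines, the values run from -0.27 (Rps23rg1) to 0.16 (Rps15a), and how many lie below 0 turns with the scaling (31 as drawn, 66 with median scaling).

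Ribosomal protein mRNAs are bright, and 80 of the 84 had a mean log2 value above 5, together with 918 other genes. Among those other bright genes the median size of a change was 0.12, and the groups did not overlap for 30.4% of them, against 0 of the 80 bright members. Those shares were 23.2% and 5% with median scaling and 31.6% and 22.5% after quantile normalization, so this contrast rests in part on the scaling. At an unadjusted p under 0.05 there were 19.5% of the other bright genes and 0 of the 80. The spread between mice of a group was also smaller, with a median residual SD of 0.08 in members, 0.10 in other bright genes and 0.15 in all genes. With the replicate block the first 2 were 0.11 and 0.10. The size of the changes kept its order under scaling, with medians of 0.04 in bright members and 0.11 to 0.12 in other bright genes with median scaling or quantile normalization.

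**Figure D2:**
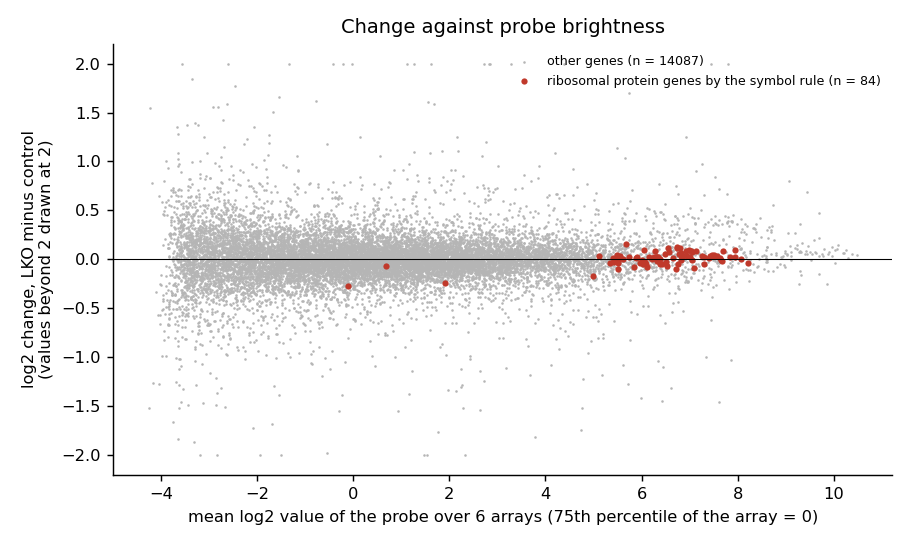
Log2 change, LKO minus control, against the mean log2 value of the gene's probe over the 6 arrays, for the 84 ribosomal protein genes by the symbol rule (red) and the 14087 other genes tested (grey), with changes beyond 2 drawn at 2. Most red points lie above a mean value of 5 and within 0.16 of 0, a narrower band than the grey points of the same brightness.

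The 31 small subunit genes had a median log2 change of 0.03, with 10 lower and 21 higher (20 and 11 with median scaling), and changes from -0.08 to 0.16. Rps15a, which encodes uS8, had the largest positive change of all members. Relative to its control mean, its log2 value was 0.06, -0.08 and 0.03 in controls and 0.05, 0.15 and 0.28 in LKO. LKO 2 and LKO 3 were above every control and LKO 1 was within them, so the groups overlapped (0.16 ± 0.10, SE, adjusted p = 0.60, limma). A second probe of Rps15a, printed 10 times, gave -0.03, so the 2 probes differed in sign.

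Rpsa, the laminin receptor precursor that is uS2 of the 40S subunit, had relative values of 0.07, -0.07 and 0.004 in controls and 0.05, 0.17 and 0.15 in LKO (0.12 ± 0.08, SE, adjusted p = 0.64, limma). Its second probe gave -0.01. Rps27, a zinc-finger protein of the 40S subunit, was at 0.09, -0.06 and -0.03 in controls and 0.02, 0.16 and 0.17 in LKO (0.12 ± 0.09, SE, adjusted p = 0.67). In all 3 genes LKO 2 and LKO 3 were above the controls and LKO 1 was not. LKO 2 and LKO 3 were also the only arrays in the second column of the slide. With the slide column in the fit, which sets only LKO 1 against the controls, the largest positive change of any member was 0.05. Whether slide position bears on these values was not tested. Rps21 had the widest spread of the small subunit genes, at 0.19, -0.12 and -0.07 in controls and -0.03, 0.13 and 0.19 in LKO (residual SD 0.14). Rps6, whose protein is the classical substrate of the S6 kinases, had a change of 0.02 with a 95% interval of -0.18 to 0.22. Rps3, Rps18 and Rps24, genes of the 40S head and body, had changes of 0.01, 0.0044 and -0.01.

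The 45 large subunit genes had a median log2 change of 0.01, with 14 lower and 31 higher (38 and 7 with median scaling), and changes from -0.10 to 0.12. At the upper end, Rpl23 (uL14, at the interface with the small subunit) was at 0.15, -0.09 and -0.07 in controls and 0.0007, 0.10 and 0.25 in LKO (0.12 ± 0.11, SE, adjusted p = 0.73, limma). Rpl12, which forms the base of the stalk, was at 0.08, -0.06 and -0.02 against 0.03, 0.07 and 0.24 (0.11 ± 0.09, SE, adjusted p = 0.70). In both genes LKO 3 alone exceeded all controls. Rpl41, the smallest ribosomal protein, had a change of 0.10 by its bright probe and -0.13 by a dimmer one, the widest disagreement between probes of a member.

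At the lower end, Rpl23a, a docking site for nascent-chain factors at the exit tunnel, was at 0.13, -0.08 and -0.05 in controls and -0.18, -0.09 and -0.04 in LKO (-0.10 ± 0.09, SE, adjusted p = 0.73, limma). Rpl13 was at 0.14, -0.07 and -0.07 against -0.15, -0.13 and -0.03 (-0.10 ± 0.10, SE, adjusted p = 0.74). Rpl32 was at 0.08, -0.05 and -0.03 against -0.11, -0.13 and -0.02 (-0.09 ± 0.08, SE, adjusted p = 0.74). In each of these, 2 of the 3 LKO mice were below every control and LKO 3 was within them. Rpl5 and Rpl11, which with 5S RNA bind Mdm2 when assembly is disturbed, had changes of -0.04 and 0.01, with intervals of -0.24 to 0.16 and -0.19 to 0.21. Rpl10, one of the last proteins to join the subunit, had the smallest spread of all members, with a residual SD of 0.04. Its values were 0.03, -0.04 and 0.02 in controls and -0.08, -0.0021 and -0.03 in LKO, so LKO 1 lay outside the controls and the others within them (-0.04 ± 0.08, SE, adjusted p = 0.89).

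The acidic stalk recruits elongation factors to the ribosome. Rplp0, which anchors it, was at 0.06, 0.0010 and -0.06 in controls and -0.05, 0.09 and 0.07 in LKO, a change of 0.03 with a 95% interval of -0.17 to 0.24. Rplp1 was at 0.24, -0.17 and -0.07 against -0.06, 0.12 and 0.16, and Rplp2 at 0.10, -0.05 and -0.05 against -0.05, 0.02 and 0.17. Their changes of 0.08 and 0.04 came with intervals of -0.24 to 0.39 and -0.18 to 0.28, and the interval of Rplp1 was the widest upward reach of any member. Controls and LKO overlapped in all 3 stalk genes. The 33 genes of families found in all domains of life had a median change of 0.02, as did the 41 genes of families outside bacteria.

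The mean over the 40S genes less the mean over the 60S genes, set against the controls, came to 0.0002, 0.0007 and -0.0009 in controls and 0.02, 0.02 and 0.01 in LKO. The LKO mean was 0.019 ± 0.0039 (SD, n = 3), and the 3 LKO livers were all above the 3 controls. It is a score over the members, noticed in these data and given without a test. The SD between the control mice was 0.0009, and over the alternatives the difference stayed between 0.012 and 0.022. Median scaling, the authors' table, the filters on dim probes, trend and robust eBayes and the replicate block leave it unchanged by construction. Its stability under those alternatives is therefore no support.

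Paralogs carry a ribosomal protein's function in particular tissues or states, and in 5 of the 6 tested the log2 change was below 0 (median -0.05) while Rpl37rt was at 0.03. With median scaling or quantile normalization all 6 were below 0. Of all 14171 genes, 49.2% were lower as reported, 8844 genes with median scaling and 7017 after quantile normalization. Median scaling thus moved genes down in general, with a median change of -0.05 over all genes. A ratio to the main gene within each array cancels the scaling of the array under the 75th percentile and median scalings, and 5 paralogs have such a partner that was tested. Rpl22l1, the paralog of Rpl22, was itself at 0.12, -0.06 and -0.06 in controls and -0.33, -0.18 and 0.0020 in LKO (-0.17 ± 0.11, SE, adjusted p = 0.63, limma). Relative to Rpl22 it was at 0.03, 0.01 and -0.04 in controls and -0.29, -0.21 and -0.13 in LKO. All 3 LKO livers were then below all 3 controls, by -0.21 on average, and over the alternatives the difference lay between -0.29 and -0.17. Median scaling, the authors' table, the filters on dim probes, trend and robust eBayes and the replicate block leave the difference of any such ratio unchanged by construction.

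Rps27l, a p53-responsive paralog of Rps27, had a change of -0.05 ± 0.09 (SE, adjusted p = 0.88, limma). Relative to Rps27 it was at -0.0068, 0.04 and -0.04 in controls and -0.14, -0.21 and -0.14 in LKO, again with no overlap. The difference was -0.16, between -0.19 and -0.14 over the alternatives. How it divided between the genes depended on the scaling, since with median scaling Rps27 was at 0.06 and Rps27l at -0.10. An exact two-sided permutation test gave p = 0.1 for each of these 2 ratios, the smallest p that 3 mice against 3 allow, and 0.2 after Benjamini-Hochberg adjustment over the 5 ratios. The design cannot reach 0.05, so these 2 ratios are reported as differences without overlap that passed no test. In each of the 5 ratios the mean difference exceeded the SD of either group, and each had an adjusted p of 0.2 by this permutation test. Members varied together from mouse to mouse, and a ratio removes what both genes share, which makes separation easier. No share without overlap was computed over ratios of other genes.

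For the other ratios the groups overlapped. Rpl7l1 over Rpl7 differed by -0.09, Rpl36al over Rpl36a by -0.08 and Rpl32l over Rpl32 by 0.04, each with an exact two-sided permutation p of 0.2. Rpl36al, Rpl32l and Rpl37rt are close copies of their partners, so how far each probe also reads the partner is uncertain.

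**Figure D3:**
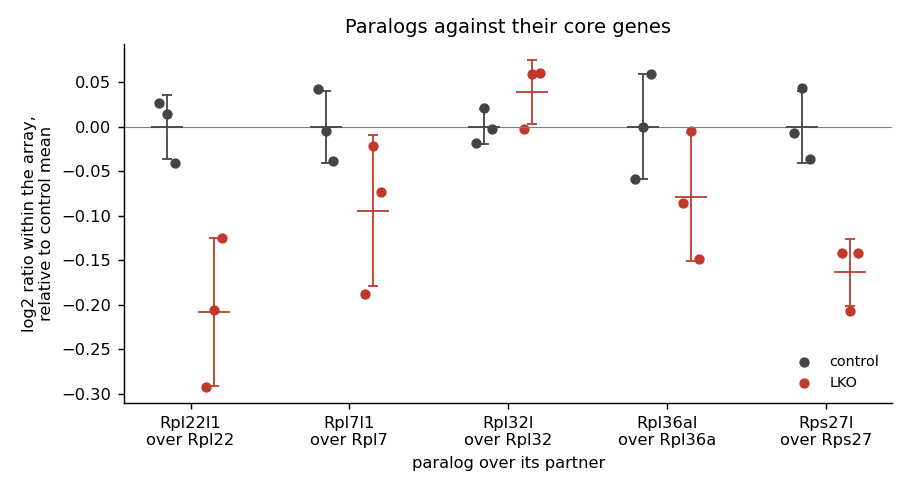
Log2 ratio of 5 paralogs to their partner genes within each array, relative to the control mean, with 1 point per mouse, the mean as a horizontal mark and 1 SD as the bar (n = 3 per group). The LKO points of Rpl22l1 over Rpl22 and of Rps27l over Rps27 lie below all control points, while the other 3 ratios overlap.

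Rpl10l, Rpl39l and Rpl3l, paralogs known from testis or striated muscle, were well above background on no array. Rpl37, a 60S gene, was not tested because its only probe was well above background on 1 control array (signal 62.7) and at 3.25 to 7.58 on the other 5. That probe gives no statement on Rpl37 itself. The symbol rule also took Rps23rg1, a retrogene of Rps23, which had the smallest p of all members. It was at -0.22, 0.05 and 0.18 in controls and -0.16, -0.35 and -0.32 in LKO (-0.27 ± 0.12, SE, adjusted p = 0.49, limma), and its second probe gave -0.38. Rps19bp1, a binding partner of Rps19 in the nucleolus, was at 0.29, -0.10 and -0.19 in controls and -0.20, -0.20 and -0.32 in LKO (-0.24 ± 0.14, SE, adjusted p = 0.58). Its groups did not overlap, with control 3 and LKO 2 close to each other, and it had the largest residual SD of the members, 0.19. Among ribosomal proteins that the symbol rule leaves out, Fau (eS30) was at 0.04 and Rack1 at -0.07.

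The members varied together from mouse to mouse. Averaged over the 84 genes, values against the control mean came to 0.10, -0.06 and -0.04 in controls and -0.07, 0.02 and 0.07 in LKO. Control 1 was the highest mouse for 49 genes and LKO 3 for 31, while LKO 1 was the lowest for 40 and control 2 for 30. Controls and LKO thus spanned nearly the same range, with SDs of 0.08 and 0.07 between mice of a group and group means 0.0073 apart. The control profile was not particular to the members. It came to 0.07, -0.04 and -0.03 over other bright genes and 0.10, -0.06 and -0.04 over mitochondrial ribosomal protein genes. In LKO the means of these 2 lists were 0.01, 0.08 and 0.05, and -0.10, 0.02 and -0.06. With the group means removed, the median correlation between 2 members over the 6 mice was 0.86 (3486 pairs, 97.6% above 0), against 0.16 for the 917 other bright genes with a value on every array and 0.69 for mitochondrial ribosomal protein genes. These are descriptions over 6 arrays, which the pairs share together with their scaling and depth of signal.

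**Figure D4:**
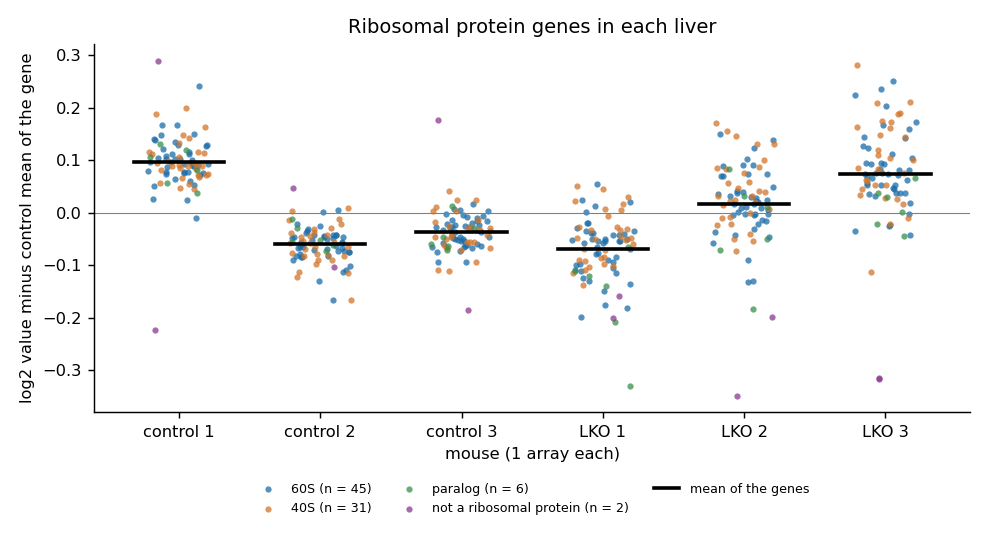
Log2 value of each of the 84 genes in each mouse, relative to the gene's control mean, coloured by subunit, with the mean over genes as a black bar; the controls are centred on their own mean, which narrows their scatter. Control 1 and LKO 3 lie high and control 2 and LKO 1 low for nearly all genes, and the bars of controls and LKO overlap.

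How far each mouse stood from the others depended on the scaling. With each array scaled to its median, the member means were 0.13, -0.09 and -0.04 in controls and -0.13, 0.02 and -0.03 in LKO. After quantile normalization they were 0.03, -0.02 and -0.01 against -0.04, -0.03 and 0.03. Control 1 was the highest mouse under all 4 settings drawn and LKO 1 the lowest, whereas LKO 3 was above 0 under 2 of them. The mean of the 3 LKO mice was 0.01 with the 75th percentile, -0.05 with the median, -0.01 with quantiles and -0.10 with no scaling, and the last follows the lower raw brightness of the LKO arrays, whose 75th percentiles were 265 to 274 against 287 to 298 in controls. Under every setting drawn this mean was smaller in size than 1 SD between the control mice.

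**Figure D5:**
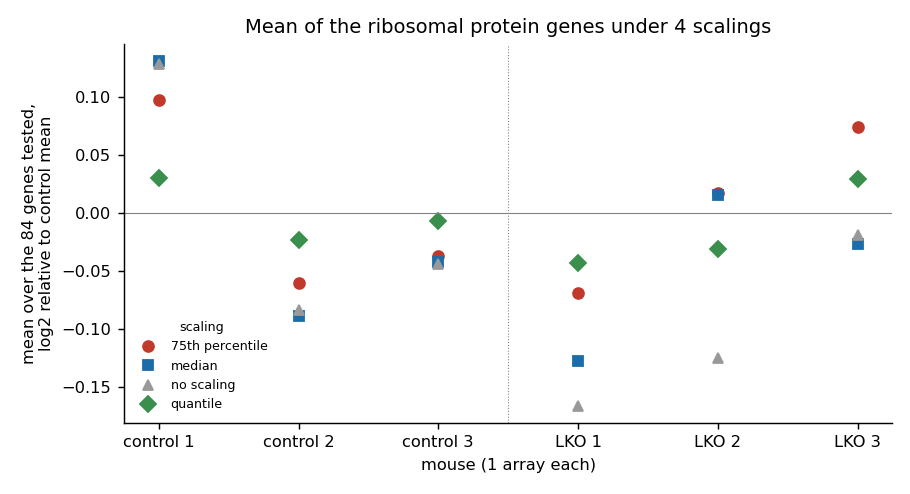
Mean over the 84 genes in each mouse, log2 relative to the control mean, under 4 scalings of the arrays, with 1 mouse per position and 1 symbol per scaling. The LKO means of the 3 mice run from -0.10 with no scaling to 0.01 with the 75th percentile, so the sign of the group difference turns with the scaling, and control 1 is highest and LKO 1 lowest throughout.

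For probes printed 10 times, repeated measurement within an array was more precise than the agreement between mice. The array prints 300 probes 10 times, and 60 of them (20%) belong to ribosomal protein genes. Over the 10 spots of such a probe the median SD was 0.05, which gives a standard error of 0.01 for the mean of the spots. The SD between mice of a group for the same probes had a median of 0.08 and was above that standard error for all 60. Only 34 of the 84 genes tested were represented by such a probe. The others rested on a probe with 1 spot, whose error within an array was not measured. Different probes of 1 gene were also close, with a median range of 0.05 in the log2 change over the 46 genes with several probes above background. In 18 of the 46 the probes differed in sign, as small changes around 0 allow, and Rpl41, Rps15a and Rps24 had the widest ranges.

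Among genes that act on or with the ribosome, 0 members of the lists below passed an adjusted p of 0.05 by limma. At an unadjusted p under 0.05 there were 1 of the initiation factors, 2 of the biogenesis genes, 2 of the RNA polymerase I genes and 0 of the others, in each list a smaller share than the 11.2% of all genes. The 20 other mRNAs known to carry a TOP tract had a median log2 change of 0.01 (8 lower, 12 higher), the 13 elongation and termination factors -0.02 (7 lower, 6 higher) and the 36 initiation factors -0.01 (20 lower, 16 higher). Eef2, the translocation factor, was at 0.09 ± 0.08 (SE, adjusted p = 0.74). Eif4g2, which drives cap-independent initiation, was at -0.24 ± 0.09 (SE, adjusted p = 0.42), and Eif6, which keeps the 60S subunit apart from the 40S, at 0.22 ± 0.10 (SE, adjusted p = 0.50). Among 18 genes of mTORC1 and of the control of ribosomal protein mRNAs, the median was -0.01, with Mtor at -0.07, Larp1 at -0.02 and Rps6kb1 at -0.0089. With median scaling the first 3 medians were -0.05, -0.07 and -0.06, a shift shared with all genes, whose median then was -0.05.

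The 61 ribosome biogenesis genes had a median of 0.07, with 44 higher and 17 lower (34 and 27 with median scaling). Their extremes by p were Riok2, a kinase of late 40S maturation, at 0.28 ± 0.11 (SE, adjusted p = 0.43, limma) and Nop10, a component of pseudouridylation particles, at -0.27 ± 0.10 (SE, adjusted p = 0.39). Among the 22 genes of RNA polymerase I and its factors (median 0.02, or -0.03 with median scaling), Ubtf and Polr1a were at 0.30 ± 0.12 and 0.29 ± 0.12 (SE, adjusted p = 0.43 and 0.44), with no overlap between groups. They were the only 2 of the 22 without overlap (9.09%), a smaller share than the 17.3% of all genes.

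Against 1 of 84 cytosolic ribosomal protein genes without overlap (19 of 84 after quantile normalization), other large complexes had the following counts. Of the 78 mitochondrial ribosomal protein genes, 57 were lower (median -0.05), and the groups did not overlap for 12 lower and 1 higher. Of the 38 proteasome subunits tested, 29 were lower (median -0.07), and the groups did not overlap for 6 lower and 1 higher, shares near that of all genes. Both lists leaned the same way with median scaling (69 and 35 lower) and with quantile normalization (58 and 30 lower), but not without control 1, where 39 and 21 were lower, and less without LKO 1, where 43 and 22 were. After quantile normalization the shares without overlap were 19.2% and 31.6%. The difference between these lists was not tested.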

How the data were processed

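Liver RNA of 3 control and 3 LKO mice, 1 mouse per array, was measured on one-colour arrays after Cy3 labelling of 0.1 µg of total RNA, per the labels' protocols. Per the submitters' processing notes, the deposited files come from Agilent Feature Extraction 11.5.1.1. The deposited processed signals are background-corrected intensity values, and the median foreground and background signals are raw intensity values, per the file headers. The deposited quality flags are other values, set to 0 or 1 by the software. Each column of the authors' value table is the processed intensity multiplied by a single factor. It is linear, not centred and of the same direction, with medians of 55.3, 62.9 and 61.5 in controls and 63.7, 59.1 and 62.2 in LKO, and the sources used here do not give how the factors were chosen.

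Probes were named by matching accessions to a RefSeq table (GRCm38.p6): 32994 of 56605 probes had 1 symbol, 0 had several and 23611 had none. Log2 processed signals, less the 75th percentile of each array, were fitted in R 4.3.3 with limma 3.58.1 (lmFit, eBayes), two-sided and with no block. Spots of a probe were averaged, control and outlier spots were left out, a gene was its brightest probe, and it was tested if that probe stood well above background on the 3 arrays of either group. The fit was tested on simulated data. The members, the lists and the rule for named genes were chosen with earlier results of these data known. That rule took Elovl6, the stalk genes, Rpsa, all paralogs and non-ribosomal symbol matches, the 6 largest changes in each direction, the 6 smallest p, the 4 largest and 2 smallest SDs, genes whose probes differ in sign, and 2 genes of each other list by p. Mtor, Larp1, Rps6kb1, Fau, Rps3, Rpl5, Rpl11, Rpl28, Rpl38, Rpl22 and Rpl36a were named outside it, for their roles and after their values were seen. Of 5 pseudogene probes and 10 Rps6k genes none was used among the members. Alternatives were quantile and median scaling, normexp with an offset of 50 (added after seeing the data, on median signals), the authors' table, both filters on dim probes, eBayes with trend and robust, the mean of probes, the slide column, the replicate number as a block, and each replicate left out.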

Additional observations from a re-analysis of the deposited data

How the results depend on the processing

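In all 16 alternatives 0 ribosomal protein genes passed an adjusted p of 0.05 by limma, and the smallest adjusted p of a member went from 0.36 to 1.0. Counting each member gene named by the rule above under each alternative, 552 values moved by less than the spread between mice and 24 by more. These counts do not cover all members. The count of members lower in LKO, 31 as reported, was 48 after quantile normalization, 66 with median scaling, 72 with the slide column and 16 to 57 with 1 replicate left out. It fell to 16 without control 1 and 19 without LKO 1, and was 57 without control 2 and 55 without LKO 3. The median change ranged from -0.06 (slide column) to 0.06 (without control 1), so the members' direction is not settled. The count of members without overlap, 1 as reported, was 19 with quantile normalization (13 lower, 6 higher; 22.6%, against 17.9% of all genes), 7 with median scaling (8.33% against 17.5%), 2 with normexp, 2 with the mean of probes and 1 to 18 with 1 replicate left out, where fewer mice make separation easier. The 18 came without control 1 (21.4%, against 31.5% of all genes), 14 without LKO 1 (16.7% against 32.2%) and 8 without LKO 3 (9.52% against 25.3%). At an unadjusted p under 0.05, 0 members as reported became 1, Rps23rg1, with median scaling and with the mean of probes, and 0 to 1 with 1 replicate left out. Over all genes, 2 as reported became 16 with normexp, 13 with trend and robust, 1 without a filter, 1 with the stricter filter, 1 with the slide column and 1 to 15 with 1 replicate left out. The cause of these moves was not tested. The slide column fit sets only LKO 1 against the controls. Same-numbered mice did not deviate together (correlations of 0.04, -0.05 and -0.07), and the labels do not say whether the numbers pair mice. With the replicate block 31 members were lower, 0 passed, and 3 genes passed in all. Signals near background limit Rpl37, Rpl10l, Rpl39l and Rpl3l.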
